A study of Mus musculus with 10 samples.

Results

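Aerobic glycolysis and the export of its product lactate were followed through 10 genes in whole neural retina. After light damage 5 of these were lower, where 44.0% of genes reaching 10 FPKM were called in either direction and 24.0% as lower. The 10 genes were *Slc2a1*, *Hk1*, *Hk2*, *Pfkl*, *Pfkfb3*, *Pkm*, *Ldha*, *Ldhb*, *Slc16a1* and *Bsg*. They were taken by symbol from the 54532 genes of the deposited expression table, by a rule that uses no measured value. All 10 passed the filter on low values and were among the 24508 genes tested. Expression came from bulk RNA-seq of 2-month-old BALB/c mice, an albino strain whose eyes lack the pigment that shields the retina. Both groups were adapted to darkness over 12 hr before 1 day of light, at 200 lux in the normal light group (NL, 5 retinas numbered 1, 4, 5, 7 and 8) or at 15000 lux in the light damage group (LD, 5 retinas numbered 1, 4, 6, 7 and 8). The labels number the retinas but do not say whether each came from a separate mouse, so the p-values measure the spread between these samples, part of which may be technical.

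Glucose enters cells through the transporter encoded by *Slc2a1*, is trapped by hexokinases (*Hk1*, *Hk2*), passes the committed step at phosphofructokinase (*Pfkl*, with *Pfkfb3* making its activator fructose-2,6-bisphosphate) and becomes pyruvate through pyruvate kinase (*Pkm*). Lactate dehydrogenase (*Ldha*, *Ldhb*) interconverts pyruvate and lactate. The monocarboxylate transporter encoded by *Slc16a1* carries lactate across membranes and needs basigin (*Bsg*) as its chaperone. The retina is known for turning much of its glucose into lactate although oxygen is present. Photoreceptors carry out a large share of this aerobic glycolysis, and HK2 and the A form of lactate dehydrogenase are abundant in them.

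Promoter sequences are shown for the genes of the set where a pair of related enzymes differed in call, and for the transporter with the largest difference. They are the 250 bases before the RefSeq start on GRCm38.p6, written 5′ to 3′ on the strand of the gene. Where a gene had several RefSeq starts, the one nearest its 5′ end as deposited was taken. Which start is used in retina was not tested. Capitals mark the letters ACGTG on either strand, a form of the core to which hypoxia-inducible factors bind. Forms of that core with another first letter were not marked or counted. *Slc16a1* lies on the plus strand (chr3:104638414-104638663), *Hk2* on the minus strand (chr6:82774455-82774704), *Ldha* on the plus strand (chr7:46845554-46845803), *Hk1* on the minus strand (chr10:62379909-62380158) and *Ldhb* on the minus strand (chr6:142507958-142508207). The *Ldha* window lies inside the gene as the table bounds it, since a longer transcript starts upstream. None of the 5 windows holds an annotated exon base of its own gene.
Slc16a1: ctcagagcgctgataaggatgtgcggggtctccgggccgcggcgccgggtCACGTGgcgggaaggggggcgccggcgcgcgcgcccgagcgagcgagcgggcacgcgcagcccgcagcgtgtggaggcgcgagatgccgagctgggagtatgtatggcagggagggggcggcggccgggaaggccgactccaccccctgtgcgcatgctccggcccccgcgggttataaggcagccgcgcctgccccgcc
Hk2: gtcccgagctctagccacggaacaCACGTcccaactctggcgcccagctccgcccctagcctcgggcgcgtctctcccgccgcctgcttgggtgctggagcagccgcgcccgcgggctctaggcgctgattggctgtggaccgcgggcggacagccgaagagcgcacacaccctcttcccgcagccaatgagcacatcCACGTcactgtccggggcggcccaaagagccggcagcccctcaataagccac
Ldha: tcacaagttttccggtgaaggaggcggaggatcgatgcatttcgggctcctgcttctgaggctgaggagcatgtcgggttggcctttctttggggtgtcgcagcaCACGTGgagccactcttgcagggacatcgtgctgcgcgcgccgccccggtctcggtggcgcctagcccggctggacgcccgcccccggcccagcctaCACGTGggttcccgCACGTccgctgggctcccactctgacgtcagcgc
Hk1: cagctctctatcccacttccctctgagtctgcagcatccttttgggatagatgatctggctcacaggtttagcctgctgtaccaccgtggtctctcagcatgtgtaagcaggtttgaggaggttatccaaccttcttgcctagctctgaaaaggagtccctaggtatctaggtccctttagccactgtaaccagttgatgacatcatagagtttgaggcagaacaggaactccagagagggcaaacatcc
Ldhb: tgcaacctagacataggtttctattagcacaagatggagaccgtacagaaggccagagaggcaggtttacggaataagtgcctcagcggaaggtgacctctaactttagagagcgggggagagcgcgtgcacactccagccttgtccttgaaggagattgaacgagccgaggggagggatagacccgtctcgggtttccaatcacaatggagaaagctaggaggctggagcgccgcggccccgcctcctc
The core ACGTG stood in the windows of *Slc16a1*, *Hk2* and *Ldha*, which were lower in LD, and not in that of *Pkm*, which was lower too. It was absent from those of *Hk1*, *Ldhb* and *Pfkl*, which did not pass the test. *Slc2a1* and *Pfkfb3*, which also did not pass it, held the core. So 5 of the 9 genes with a RefSeq window had it, against 16.6% of all 32851 windows of the same length. Of the windows not shown, those of *Pkm* and *Pfkfb3* held 211 and 148 annotated exon bases of their own gene. Those of *Pfkl* and *Slc2a1* held 53 and 34. In *Slc16a1* and *Ldha* the core was part of CACGTG, the E-box to which MYC binds, found in 2 of the 9 windows and 6.02% of all windows. This palindrome holds ACGTG on both strands. No window of the 9 held TAATCC, a core bound by the photoreceptor factor CRX, which 6.25% of all windows held. A match of letters is a description and shows no binding.

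The depth recovered from the values was 18965090 to 26832535 reads per retina, and 1 read on a gene of 1 kb was worth 0.0388 to 0.0493 FPKM (fragments per kilobase of gene, scaled to library size). All 12 rod markers were lower in LD (median log2 fold change -2.26), and their summed level was 9787 to 11942 FPKM in NL and 1506 to 2947 FPKM in LD. Of 9 cone markers 8 were lower. Markers of microglia were higher for 8 of 10 genes (sum of 33.5 to 52.2 FPKM in NL and 65.8 to 156 FPKM in LD). Of 10 Müller glia markers 4 were higher and 2 lower, but their sum was 1283 to 1505 FPKM in NL and 950 to 1198 FPKM in LD. No marker of amacrine or ganglion cells passed the test. In bulk retina, fewer cells of a type and less RNA per cell cannot be told apart, and the part that the cell make-up has in the differences below was not tested. Of the 20 pairs of retinas of a group, 3 were much closer than the rest: the chi-square per gene between their reads was 2.52 for LD-4 and LD-6, 2.71 for NL-5 and NL-7 and 3.41 for LD-1 and LD-7, against 10.9 to 38.6 for the other 17. The sources used here do not say whether such a pair shares a mouse, so n = 5 counts retinas, and p-values are too small if a pair does. LD-4 and LD-6 also held the lowest rod sums (1506 and 1616 FPKM against 2425 to 2947 FPKM), and calls of the 10 genes that turn on this pair are given without it.

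Of the 10 genes, *Slc16a1*, *Hk2*, *Pkm*, *Ldha* and *Bsg* were lower in LD at an adjusted p under 0.05 (limma on log2(FPKM + 0.1), Benjamini-Hochberg over all genes tested), and none was higher. By this rule 27.8% of all genes tested were called, 13.4% as lower. Where the mean reached 10 FPKM in a group, as it did for 9 of the 10, 44.0% of genes were called and 24.0% lower. A count of 5 of 10 is near the first share. All 5 were lower, and 5 of 10 lies above the second share, a comparison that follows from the direction seen. The called share was larger among the more abundant genes. The 5 stood at 39.2 to 502 FPKM in NL, and no share was taken at a cut above 10 FPKM. Whether the difference from either share goes beyond chance in 10 genes was not tested. At the thresholds used in the study, an adjusted p under 0.01 and a change over 2-fold, only *Slc16a1* was called among the 10, against 6.51% of all genes (2.37% lower and 4.13% higher) and 7.64% of those that reached 10 FPKM. The same 5 genes were those whose LD values all lay under all NL values, a pattern that 22.4% of all genes had in either direction and 10.6% had in this one. The median log2 fold change of the 10 genes was -0.20, against -0.01 over all genes tested.

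**Figure D1:**
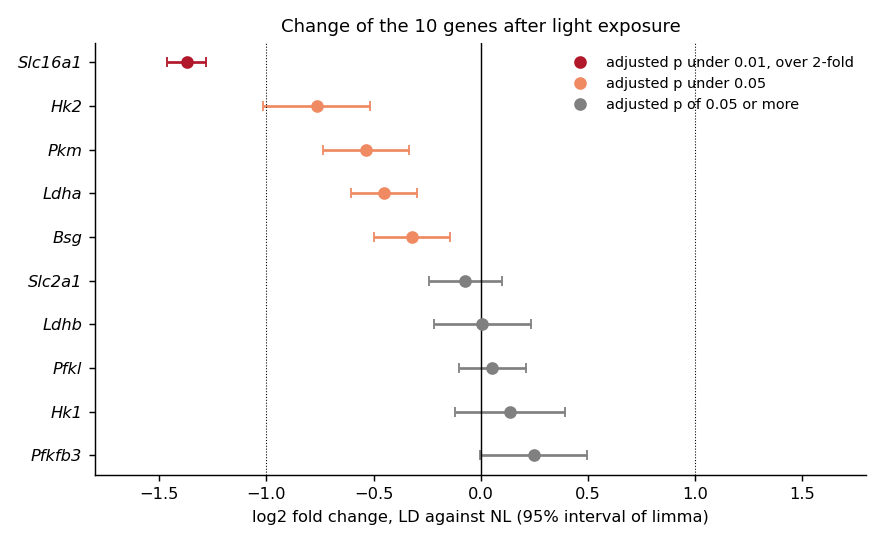
Change of each of the 10 genes in LD against NL, as the log2 fold change of limma on log2(FPKM + 0.1) with its 95% interval (x axis) by gene (y axis), with dotted lines at a 2-fold change. The interval of *Slc16a1* lies wholly beyond the 2-fold line (-1.46 to -1.28), those of *Hk2*, *Pkm*, *Ldha* and *Bsg* lie below 0, and the other 5 reach or cross 0.

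In normal light the levels per gene length ran from *Pkm* (502 ± 56.2 FPKM, mean ± SD, n = 5) through *Bsg* (354 ± 17.7), *Ldha* (256 ± 13.2), *Hk1* (101 ± 5.95), *Pfkl* (67.6 ± 6.57), *Ldhb* (62.7 ± 4.36), *Slc2a1* (52.2 ± 3.73), *Slc16a1* (46.0 ± 2.23) and *Hk2* (39.2 ± 1.70) down to *Pfkfb3* (4.72 ± 0.750). *Pkm* ranked 27 and *Bsg* 39 among all genes of the table by NL mean. Neighbours in this order had separate ranges except *Pfkl* and *Ldhb*, and *Slc2a1* and *Slc16a1*, whose NL values overlapped. In LD the order was the same but for its lower end, where *Hk2* (23.3 ± 4.14 FPKM) stood above *Slc16a1* (17.7 ± 0.405 FPKM), with ranges that overlapped.

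**Figure D2:**
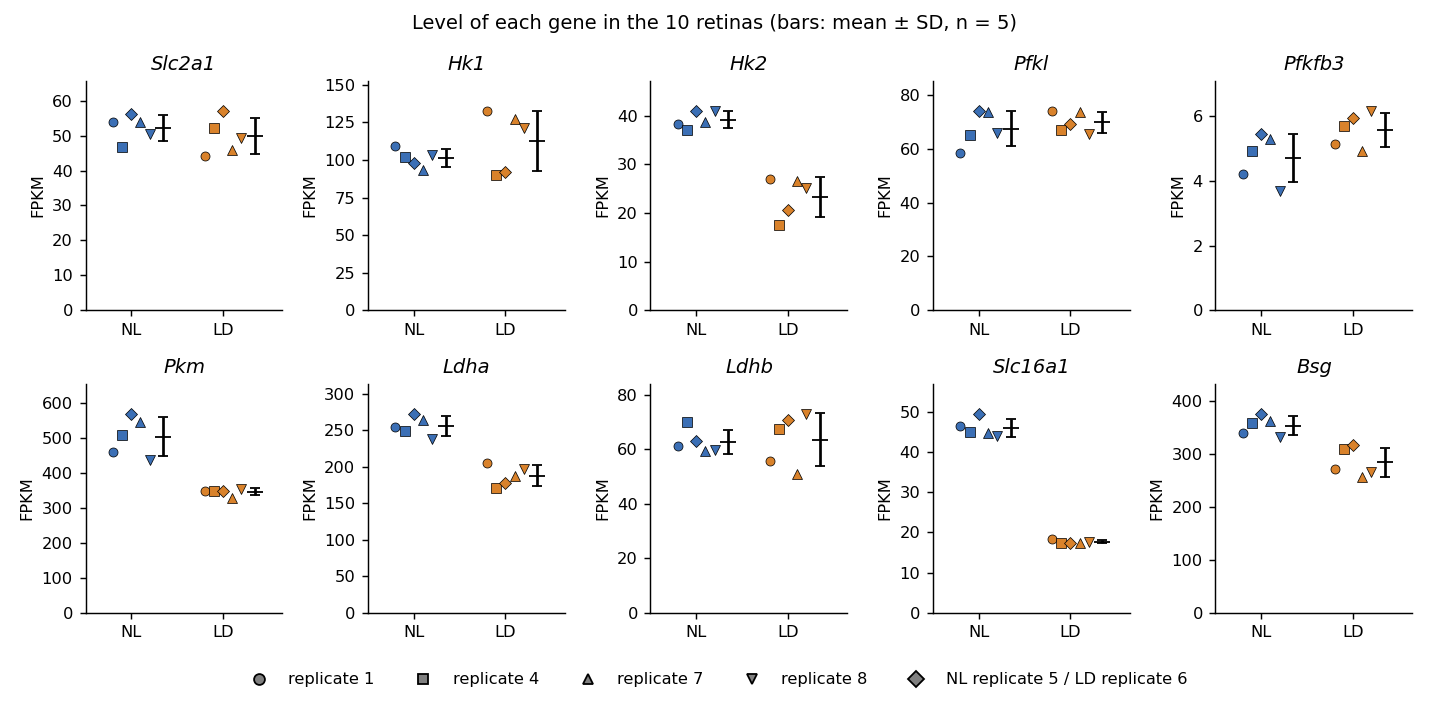
Level of each gene in each retina (y axis, FPKM, from 0) in NL (blue) and LD (orange), with symbols for the replicate number and bars for the mean ± SD of 5 retinas. The groups are apart for *Hk2*, *Pkm*, *Ldha*, *Slc16a1* and *Bsg*, and LD-4 and LD-6 (square and diamond) sit together at one end of the LD group for *Hk1*.

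Glucose entry was measured by *Slc2a1*, the main glucose transporter of the retina and of the vessels and pigment epithelium that supply it (chr4:119108711-119137983, GRCm38, plus strand). It stood at 53.8, 46.7, 56.2, 54.0 and 50.4 FPKM in NL-1, NL-4, NL-5, NL-7 and NL-8, and at 44.3, 52.3, 57.1, 45.9 and 49.4 FPKM in LD-1, LD-4, LD-6, LD-7 and LD-8. The groups overlapped, and the log2 fold change of -0.07 (SE 0.08, 95% interval -0.24 to 0.10, adjusted p = 0.538) did not pass the test. Its sign was positive under other scalings (0.03 as TPM and 0.06 without the factor per retina). The highest LD values were those of LD-6 and LD-4. Both also had the highest LD sums of endothelial and pericyte markers (104 FPKM in each, against 64.7 to 66.1 in the other LD retinas). They likewise led LD in bipolar, amacrine, ganglion cell, Müller glia and blood leukocyte marker sums, with the lowest rod and cone sums. In NL, where *Slc2a1* was at a like level, endothelial and pericyte sums were 48.5 to 59.9 FPKM. The part of any of these cells in the *Slc2a1* values was not tested.

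The first enzymes of the path parted. *Hk2*, the hexokinase whose level is regulated and which is found in photoreceptors (chr6:82725025-82774454, minus strand), was read at 38.2, 37.1, 41.0, 38.7 and 40.9 FPKM in the NL retinas in the order above, and at 26.9, 17.4, 20.5, 26.5 and 25.1 FPKM in the LD retinas. Every LD retina was below every NL retina, and LD-4 and LD-6 were the lowest. The LD mean was 59.4% of the NL mean, a log2 fold change of -0.77 (SE 0.11, adjusted p = 5.53e-04; exact permutation p = 0.00794, the smallest that 5 against 5 retinas can give). *Gm17034*, on the opposite strand within *Hk2*, stood at 0.880 and 0.311 FPKM, and the counting is not stated to use strand. *Hk1*, the hexokinase that most cells use (chr10:62268855-62379908, minus strand), stood at 109, 102, 97.9, 93.5 and 104 FPKM in NL and at 133, 90.0, 91.9, 127 and 121 FPKM in LD. Here LD-1, LD-7 and LD-8 lay above all NL retinas and LD-4 and LD-6 below all of them. The log2 fold change of *Hk1* was 0.14 (SE 0.12, interval -0.12 to 0.39, adjusted p = 0.432), and without LD-4 and LD-6, a choice made after the values were seen, it was 0.33 with an adjusted p of 0.00511.

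At the committed step, *Pfkl*, the liver-type phosphofructokinase (chr10:77986947-78010083, minus strand), was measured at 58.5, 65.2, 74.2, 73.8 and 66.1 FPKM in NL and at 74.2, 67.0, 69.4, 73.8 and 65.6 FPKM in LD. Its groups overlapped nearly throughout, and the log2 fold change was 0.05 (SE 0.07, interval -0.10 to 0.21, adjusted p = 0.620). *Pfkfb3* (chr2:11471433-11554077, minus strand) was the lowest of the 10 genes, at 4.21, 4.94, 5.45, 5.30 and 3.69 FPKM in NL and 5.16, 5.71, 5.94, 4.91 and 6.17 FPKM in LD, from 680 to 1038 reads per retina. LD-4, LD-6 and LD-8 lay above every NL value. The log2 fold change of 0.25 (SE 0.11, interval -0.00 to 0.50) had an adjusted p of 0.137, which passed 0.05 as the only higher call of the 10 as TPM (0.35, adjusted p = 0.0296) and without the factor per retina (0.38, adjusted p = 0.0272), scalings that moved the median of all genes by 0.10 and 0.12.

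*Pkm*, the pyruvate kinase gene of most tissues outside the liver (chr9:59656368-59679375, plus strand), had 458, 507, 568, 544 and 435 FPKM in NL and 348, 346, 348, 327 and 353 FPKM in LD. The LD retinas lay close together, with a coefficient of variation of 2.90% against 11.2% in NL, and all were below the NL retinas. The LD mean of 345 FPKM was 68.6% of the NL mean (log2 fold change -0.54, SE 0.09, adjusted p = 0.00132). Quantile normalization ended this call (-0.19, adjusted p = 0.0661). The values are per gene and do not separate the M1 and M2 splice forms of *Pkm*, and AC160637.1, which overlaps it on the same strand, stood at 23.2 FPKM in NL and 15.1 in LD.

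Of the A and B genes of lactate dehydrogenase, *Ldha* was called lower and *Ldhb* was not. *Ldha*, whose subunit favours the making of lactate (chr7:46841475-46855627, plus strand), stood at 254, 249, 273, 264 and 239 FPKM in NL and at 206, 170.2, 177, 187 and 197 FPKM in LD. Its groups did not overlap, and LD-4 and LD-6 were again the lowest. The LD mean of 187 ± 14.3 FPKM was 73.3% of that in NL (log2 fold change -0.45, SE 0.07, adjusted p = 7.39e-04). *Ldhb*, whose subunit favours the use of lactate (chr6:142490249-142507957, minus strand), stood at 61.1, 70.1, 62.9, 59.4 and 59.8 FPKM in NL and at 55.5, 67.4, 70.8, 50.8 and 73.1 FPKM in LD. The LD values of *Ldhb* lay both above and below the NL range, and the log2 fold change was 0.01 (SE 0.10, interval -0.22 to 0.23, adjusted p = 0.967), with a sign that changed when single retinas were left out. The table lists 5 pseudogenes whose description names lactate dehydrogenase, which reached 2.45 FPKM in sum in any retina. Copies described otherwise were not counted, and how reads matching several places were counted is not given in the sources used here.

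Shares of related enzymes were formed within each retina, where the scaling of the library drops out. *Hk2* made up 25.9%, 26.6%, 29.5%, 29.3% and 28.3% of summed *Hk1* and *Hk2* FPKM in NL, and 16.8%, 16.2%, 18.2%, 17.2% and 17.2% in LD. The mean fell from 27.9% ± 1.60 to 17.1% ± 0.736, with no overlap (exact permutation p = 0.00794, adjusted over 3 shares 0.0238). The sum of both genes was 140.4 ± 5.85 FPKM in NL and 136 ± 24.3 FPKM in LD (exact permutation p = 0.675). Its LD values ran from 107 to 160 FPKM, below and above the NL range of 132 to 147 FPKM. LD-4 and LD-6, low in both hexokinases, had shares like those of the other LD retinas. *Ldha* made up 80.6%, 78.1%, 81.3%, 81.6% and 80.0% of summed *Ldha* and *Ldhb* FPKM in NL, and 78.7%, 71.6%, 71.5%, 78.6% and 72.9% in LD. This mean fell from 80.3% ± 1.40 to 74.7% ± 3.69 (exact permutation p = 0.0238, adjusted 0.0357), but LD-1 and LD-7 overlapped the NL range, and without LD-4 and LD-6 the difference was -3.54 percentage points with an adjusted p of 0.0804. Leaving out NL-1, NL-5, NL-7 or NL-8 also brought the adjusted p to between 0.0714 and 0.0833. The summed level of *Ldha* and *Ldhb* went from 318 ± 13.6 to 251 ± 14.5 FPKM (exact permutation p = 0.00794). The share of *Pfkl* among the 3 phosphofructokinase genes was 36.0% ± 3.59 in NL and 33.8% ± 2.59 in LD (exact permutation p = 0.302, adjusted 0.302), with overlapping groups. The summed level of these 3 genes went from 188 ± 8.08 to 207 ± 6.01 FPKM, with no overlap (exact permutation p = 0.00794). Most of this rise lay in *Pfkp* (67.7 FPKM in NL and 84.0 in LD), whose own call 9 of 24 alternatives lost. The p-values of the sums are not adjusted, and the sums were not formed in the alternatives.

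**Figure D3:**
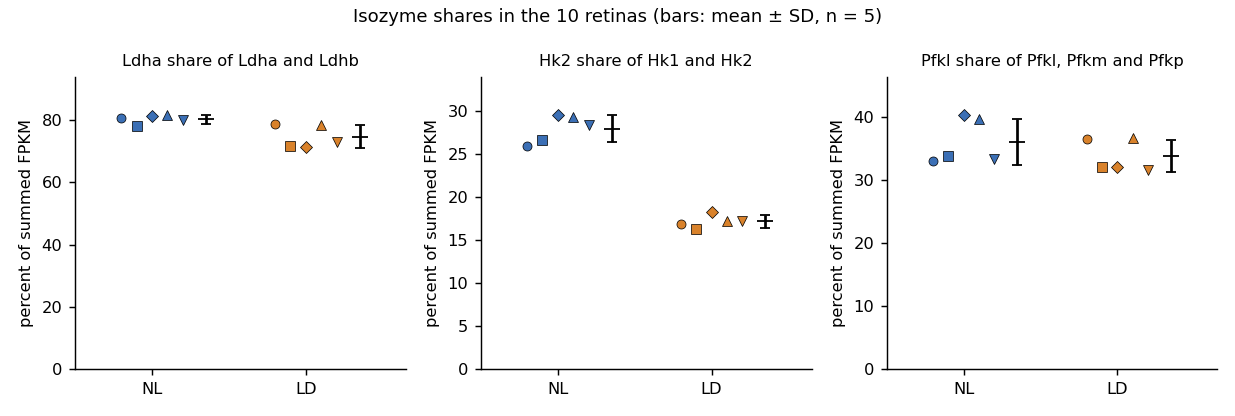
Share of 1 gene in the summed FPKM of its isozymes in each retina (y axis, percent, from 0) in NL (blue) and LD (orange), with bars for the mean ± SD of 5 retinas and the replicate symbols of the plot of levels. The *Hk2* share is below all NL values in all 5 LD retinas, the *Ldha* share in 3 of them stands apart below NL, and the *Pfkl* shares overlap.

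Lactate transport held the largest change of the 10 genes. *Slc16a1*, the monocarboxylate transporter MCT1 (chr3:104638668-104658462, plus strand), was read at 46.6, 45.1, 49.6, 44.8 and 43.9 FPKM in NL and at 18.4, 17.4, 17.5, 17.5 and 17.7 FPKM in LD. The groups were far apart and each was tight, with coefficients of variation of 4.85% in NL and 2.29% in LD. The level rested on 4211 to 5017 reads in each NL retina and 1564 to 1985 in each LD retina. It was 2.60-fold lower in LD (log2 fold change -1.37, SE 0.04, interval -1.46 to -1.28, adjusted p = 1.06e-08), and its p-value ranked 11 among the 24508 genes. Every one of 24 other ways of processing kept this call, with log2 fold changes of -1.39 to -1.24.

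*Bsg*, whose protein escorts MCT1 to the membrane and whose photoreceptor form binds rod-derived cone viability factor (chr10:79704491-79711969, plus strand), stood at 341, 359, 377, 363 and 333 FPKM in NL and at 272, 310.5, 317, 258 and 266 FPKM in LD. The groups did not overlap, and LD-4 and LD-6 were the highest of LD. The LD mean of 285 ± 27.3 FPKM was 80.3% of the NL mean (log2 fold change -0.32, SE 0.08, adjusted p = 0.0133). The call was lost with quantile normalization (-0.07, adjusted p = 0.494), without the factor per retina (-0.19, adjusted p = 0.124) and with the 3 closest pairs averaged (-0.32, adjusted p = 0.0686). *Slc16a1* equalled 13.0% ± 0.530 of the *Bsg* level in NL and 6.27% ± 0.646 in LD, in ranges of 12.3% to 13.7% and 5.51% to 6.79%. Forms of *Bsg* with and without the photoreceptor-specific exon are not told apart by these values.

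A further list of 10 genes held other monocarboxylate carriers, their chaperones and the ligand of basigin with its relative, of which 4 were lower and none higher at an adjusted p under 0.05. None of the 4 encodes a carrier known for lactate. *Slc16a6*, a carrier of ketone bodies, fell from 35.1 ± 1.52 to 14.0 ± 4.27 FPKM (log2 fold change -1.37, SE 0.18, adjusted p = 3.09e-04). *Nxnl1*, the gene of rod-derived cone viability factor, fell from 77.1 ± 7.58 to 15.1 ± 5.06 FPKM (log2 fold change -2.41, SE 0.21, adjusted p = 1.51e-05), and its relative *Nxnl2* from 27.6 to 13.2 FPKM (adjusted p = 0.00398). *Nptn*, another basigin-like chaperone, had a log2 fold change of -0.15 (adjusted p = 0.0315) that missed 0.05 in 14 of 24 alternatives, among them those without NL-1, NL-4, NL-5, NL-8, LD-1, LD-7 or LD-8 (adjusted p = 0.0578 to 0.0732). The sister transporters of *Slc16a1* did not pass the test: *Slc16a3* (MCT4) stood at 9.17 FPKM in NL and 8.39 in LD (adjusted p = 0.735), *Slc16a7* (MCT2) at 1.91 and 1.85 (adjusted p = 0.798), and *Slc16a8* (MCT3, of the pigment epithelium) at 4.90 and 5.85 (adjusted p = 0.660). *Emb*, the chaperone of MCT2, stood at 4.12 and 4.34 FPKM (adjusted p = 0.670).

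Among 22 tested entries of other glycolytic enzymes, 3 were higher and 2 lower, with a median log2 fold change of -0.04. The higher ones were minor hexokinases and the platelet-type phosphofructokinase. *Hk3*, a hexokinase of myeloid cells, rose from 0.151 ± 0.0546 to 1.39 ± 0.394 FPKM (8 to 17 reads per NL retina, 64 to 144 in LD; log2 fold change 2.55, SE 0.24, adjusted p = 3.11e-05). Markers of microglia (8 of 10) and of blood leukocytes (5 of 7 tested, sum of 1.32 to 3.36 FPKM in NL and 7.36 to 13.5 in LD) were higher in the same retinas, and their part in *Hk3* was not tested. *Hkdc1* rose from 4.61 ± 0.731 to 16.7 ± 7.04 FPKM (log2 fold change 1.75, SE 0.26, adjusted p = 6.41e-04), which left it below *Hk2* in mean. *Pfkp* rose from 67.7 ± 9.89 to 84.0 ± 5.15 FPKM (log2 fold change 0.32, SE 0.09, adjusted p = 0.0258), a call that 9 of 24 alternatives lost, among them those without NL-5, NL-7, LD-4, LD-6 or LD-8 (adjusted p = 0.0522 to 0.0622) or without both LD-4 and LD-6 (0.124). The muscle-type *Pfkm* stood at 52.5 and 53.4 FPKM (adjusted p = 0.839). Both lower entries were of *Aldoa*, an aldolase that the table lists under 2 identifiers. The main entry (ENSMUSG00000030695) fell from 585 ± 77.1 to 438 ± 12.8 FPKM (log2 fold change -0.41, SE 0.10, adjusted p = 0.0128), with a sign that turned under quantile normalization (0.20) and a call that was lost without the factor per retina (adjusted p = 0.0670) and with pairs averaged (0.101). The lesser one (ENSMUSG00000114515) fell from 45.9 to 19.5 FPKM (adjusted p = 0.00268). Reads of the 2 entries could be split in counting. *Fam57b* overlaps both entries on the opposite strand and stood at 216 FPKM in NL and 67.1 in LD. *Gm44856* overlaps the lesser entry, also on the opposite strand (23.4 and 8.45 FPKM). The part of these overlaps in the *Aldoa* values was not tested.

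**Figure D4:**
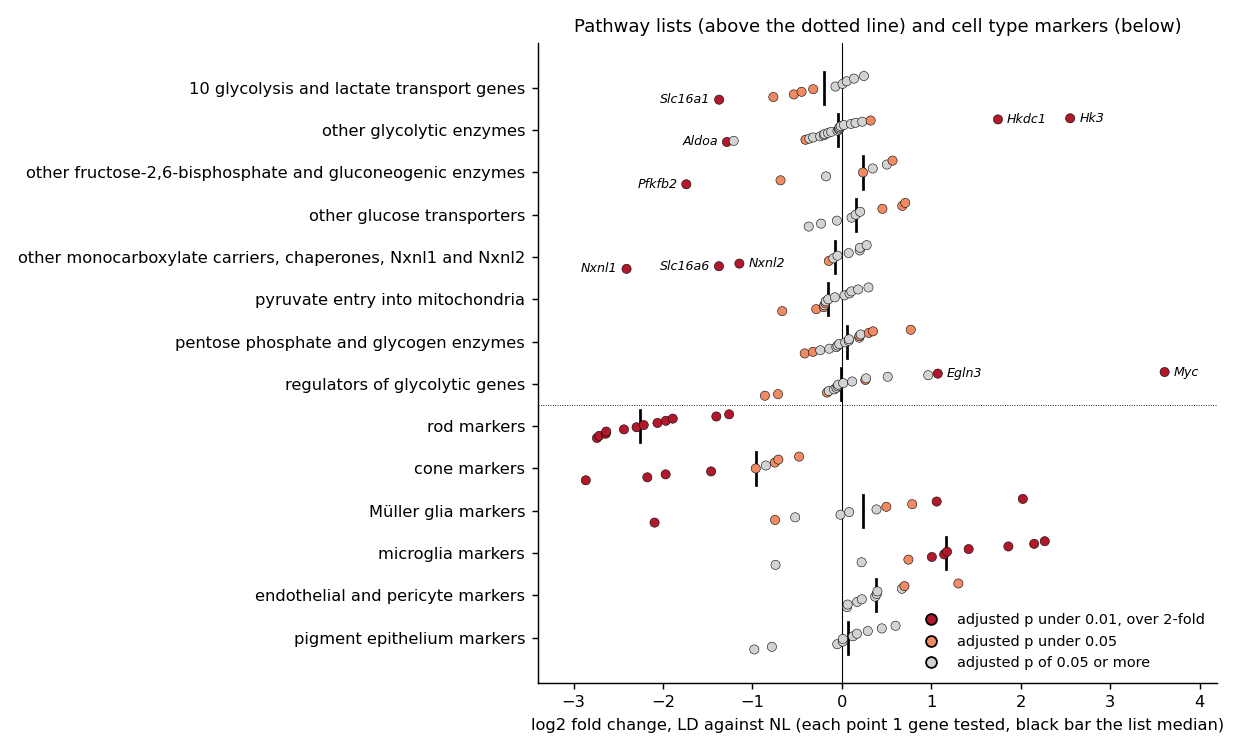
Log2 fold change in LD against NL (x axis) of each gene tested in the lists of the path and in lists of cell type markers (y axis), coloured by call, with a black bar at each list's median. The medians of the path's lists lie between -0.20 and 0.24, those of rods (-2.26) and cones (-0.96) lie below 0 and that of microglia (1.16) above it, and the path's genes past both thresholds are named.

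Of the 7 tested genes that set fructose-2,6-bisphosphate or run the path in reverse, 2 were lower and 2 higher. *Pfkfb2*, sister of *Pfkfb3* and the more abundant of the pair in NL, fell from 45.2 ± 5.35 to 13.8 ± 3.70 FPKM (log2 fold change -1.74, SE 0.18, adjusted p = 4.82e-05). *Tigar*, whose product removes fructose-2,6-bisphosphate, fell from 10.5 to 6.46 FPKM (adjusted p = 1.14e-04). *Pck2* rose from 2.55 to 3.92 FPKM (adjusted p = 0.0231, and 0.0501 without NL-7, 0.0512 without LD-4 or 0.0858 with pairs averaged) and *G6pc3* from 20.8 to 24.5 FPKM (adjusted p = 9.93e-04). Of 9 tested glucose and related transporters besides *Slc2a1*, 3 were higher and none lower. *Slc2a3*, the neuronal glucose transporter, rose from 12.6 ± 1.22 to 17.3 ± 1.33 FPKM (log2 fold change 0.45, SE 0.07, adjusted p = 0.00116), and *Slc2a13*, a carrier of myo-inositol, from 6.01 to 9.71 FPKM (adjusted p = 4.76e-04). *Slc2a6* and *Slc2a8* had log2 fold changes of 0.15 (adjusted p = 0.504) and -0.06 (adjusted p = 0.456), the latter positive under both other scalings.

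Pyruvate's way into mitochondria had 4 lower and no higher genes among 13 tested. These were *Pdhb* (35.8 FPKM in NL and 29.4 in LD, adjusted p = 3.69e-04), *Dld* (log2 fold change -0.18, adjusted p = 0.00598) and *Pdhx* (-0.20, adjusted p = 0.0165), all parts of the pyruvate dehydrogenase complex, and the phosphatase gene *Pdp2* (5.54 and 3.45 FPKM, adjusted p = 2.08e-04). The call for *Dld* was lost as TPM (adjusted p = 0.147), without the factor per retina (0.366) and with pairs averaged (0.0816). That for *Pdhx* was lost in the same settings (0.222, 0.341 and 0.111) and without LD-4 and LD-6 (0.0859). The side paths of the pentose phosphates and of glycogen had 4 higher and 2 lower genes among 16, among them *Pgm1* (2.85 FPKM in NL and 4.95 in LD, adjusted p = 1.79e-04), *Pgls* (7.19 and 9.19, adjusted p = 2.70e-04), *Pgm2* (log2 fold change 0.30, adjusted p = 0.00678) and *Rpe* (-0.32, adjusted p = 0.0197). The call for *Pgm2* was lost with pairs averaged (0.0566), and that for *Rpe* as TPM (0.106), without the factor per retina (0.120) and without LD-4 and LD-6 (0.111).

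Regulators of glycolytic genes showed 3 higher and 3 lower among 16 tested. *Myc*, a transcription factor that binds the E-box, rose from 0.318 ± 0.117 to 4.84 ± 0.663 FPKM (log2 fold change 3.61, SE 0.22, adjusted p = 1.49e-06). *Hif1a*, the oxygen-sensitive factor of the ACGTG core, stood at 98.7 and 89.1 FPKM (log2 fold change -0.15, adjusted p = 0.122), and its relative *Epas1* fell from 35.6 to 21.6 FPKM (adjusted p = 3.83e-04). *Egln3*, a hydroxylase that marks these factors for destruction, rose from 1.72 to 3.70 FPKM (log2 fold change 1.07, SE 0.23, adjusted p = 0.00612). *Ppargc1a*, a coactivator of mitochondrial genes, fell from 8.11 to 4.45 FPKM (adjusted p = 3.90e-05), and *Txnip*, a brake on glucose uptake, stood at 1.48 and 2.19 FPKM (log2 fold change 0.51, adjusted p = 0.0725, and 0.0418 without NL-5 or 0.0178 without LD-8). Over all these further lists 93 entries were tested, of which 15 were higher and 17 lower, and their median log2 fold change was -0.03. As TPM 20 were higher and 11 lower, and without the factor per retina 22 were higher and 10 lower.

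Within LD, the pair LD-4 and LD-6 held the lowest or the highest places for 6 of the 10 genes. They were lowest for *Hk1*, *Hk2*, *Ldha* and *Slc16a1* and highest for *Slc2a1* and *Bsg*. For *Pfkl*, *Pfkfb3*, *Pkm* and *Ldhb* the pair lay among the other LD retinas. For *Slc16a1* the pair lay below the next LD retina by less than the SD of the group. *Hk1* was the only one of the 10 whose side of 0.05 changed when both were left out.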

How the data were processed

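RNA-seq was measured in 10 neural retinas, 5 NL and 5 LD, grouped by their labels. RNA was extracted with TRIzol and libraries were made with a TruSeq RNA kit. The authors deposited FPKM values per gene, which a company normalized. The submitters' processing notes name Bowtie2 2.0.6, TopHat2 2.0.9 and the build mm8, but the positions in the file match GRCm38: of 54409 identifiers found in GENCODE M21, 53462 had the same position. The counting program and its rule for reads with several matches are not given in the sources used here. Multiplying FPKM by gene length and dividing by the smallest step gave whole reads (within 0.1 read) for 100% of the values. The deposited values carry a factor per retina in the library size, 0.951 to 0.968 in NL and 1.041 to 1.069 in LD.

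From the FPKM, log2(FPKM + 0.1) was fitted in limma 3.58.1 (R 4.3.3) with an intensity trend and no block, for the 24508 genes that reached 0.1 FPKM in 5 or more retinas, so that fold changes of low genes are understated. Adjusted p-values are Benjamini-Hochberg values over all genes tested. Single values and shares were compared by two-sided exact permutation tests (scipy 1.17.1, numpy 2.4.6, pandas 2.3.3, Python 3.11.15), and plots used matplotlib 3.10.9. The fit was also run on simulated retinas drawn independently, which could not test the effect of close pairs of retinas. Named beside the 10 genes are list genes past both thresholds, up to 4 genes per list with the smallest adjusted p and a mean of at least 1 FPKM, and the sister genes of the 10, *Hif1a* and *Txnip* at any p. The 10 genes, the lists and the tests were chosen with earlier results of these data known. Promoter windows and their start sites are RefSeq's on GRCm38.p6, and 9 of the 10 genes matched.

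Alternatives changed the pseudocount (1 or 0.01), the filter (none, or 1 FPKM), the scaling (TPM, quantile, no factor per retina), the trend, a covariate for the presence of *Xist*, the block by replicate number, averaging of the 3 closest pairs of retinas and leaving out each retina. Limma-voom on the recovered reads and leaving out LD-4 with LD-6 were added after the values were seen. Of the red blood cell, pigment epithelium, bipolar, endothelial and blood leukocyte marker lists, the numbers higher and lower were 0 and 0 of 4, 0 and 0 of 10, 0 and 1 of 9, 2 and 0 of 10, and 5 and 0 of 7 tested. Precision rests on 18965090 to 26832535 reads per retina.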

Additional observations from a re-analysis of the deposited data

Results flagged for a closer look

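A retina stood far from the other 4 of its group in 6 of the 98 groups of 5 values examined by Dixon's criterion, against the 4.9 groups that chance alone gives at 1 in 20. Among the 10 genes these were *Pkm* in LD-7, at 327 FPKM against 346 to 353 in the other LD retinas, and *Slc16a1* in LD-1, at 18.4 FPKM against 17.4 to 17.7. Both gaps are small beside the distance to the NL group. The other values were *Pck2* in NL-4 (2.86 FPKM against 2.45 to 2.49), *Slc16a8* in NL-8 (7.44 against 3.77 to 4.80), *Dld* in LD-8 (33.2 against 30.2 to 30.9) and *Ppargc1a* in LD-8 (5.51 against 3.98 to 4.33). NL-8 also held the highest sum of pigment epithelium markers.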

How the results depend on the processing

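The call of *Slc16a1* as the only gene of the 10 past both thresholds was kept in all 24 alternatives, and *Hk2* and *Ldha* stayed lower at an adjusted p under 0.05 in all 24. *Ldha* came near that cut with quantile normalization (-0.20, adjusted p = 0.0422) and with the replicate block (-0.41, adjusted p = 0.0344). The number of the 10 genes at an adjusted p under 0.05 was 5, was 5 with each retina left out, and was 3 under quantile normalization. The count of 32 further pathway genes became 19 with the replicate block, 21 for the retinas of shared numbers without it, and 20 with the closest pairs averaged (27 to 35 with a retina left out). The 1595 genes past both thresholds became 816 with a pseudocount of 1 and 808 with the replicate block (1379 to 1603 with a retina left out).

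The *Ldha* share difference of -5.63 percentage points stayed -5.63 with the closest pairs averaged (exact p = 0.0571, adjusted 0.0857) and was -3.54 without LD-4 and LD-6 (adjusted 0.0804) and -3.47 from reads in place of FPKM (adjusted 0.0357). It was -6.64 to -4.83 with a retina left out, and the adjusted p rose to between 0.0714 and 0.0833 without NL-1, NL-5, NL-7 or NL-8. The *Hk2* share difference was -10.4 with pairs averaged (exact p = 0.0286, adjusted 0.0857) and -10.9 without LD-4 and LD-6 (exact p = 0.0179, adjusted 0.0536), where both exact p are the smallest those designs allow, -8.69 from reads in place of FPKM, and -11.3 to -10.4 with a retina left out.

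Signs turned for values near 0: *Slc2a1* (0.032 as TPM, 0.061 without the factor per retina), *Slc2a8* (0.047, 0.075), *Slc16a3* (0.0085, 0.037) and *Slc16a7* (0.052, 0.078) under those scalings, which shift the median of all genes by 0.10 and 0.12; *Slc16a7* (0.038), *Ldhb* (-0.032) and *Slc16a8* (-0.012) both with the replicate block and for the shared numbers without it; *Slc16a7* (0.077), *Ldhb* (-0.082), *Pfkm* (-0.032) and *Slc16a8* (-0.091) without LD-4 and LD-6; and the main *Aldoa* entry under quantile normalization (0.20). With a retina left out *Ldhb* ranged from -0.046 to 0.085, *Pfkm* from -0.0037 to 0.061 and *Slc16a3* from -0.19 to 0.0096. *Bsg* lost its call with the replicate block (-0.34, adjusted p = 0.0718) and with pairs averaged (-0.32, adjusted p = 0.0686), and *Egln3* with the block (adjusted p = 0.0555). The block also ended the calls of the main *Aldoa* entry (0.124), *Pfkp* (0.0882), *Pck2* (0.0616), *Dld* (0.0967), *Pdhx* (0.0802), *Rpe* (0.141) and *Pgm2* (0.0692). The cause of these shifts was not tested.

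Retinas with the same number had correlations of deviations of -0.0893 to 0.0656 over the 4 shared numbers, none over 0.1, so the numbers were not taken as pairs, and only number 4 correlated best with its own. The count-based tests planned on recovered reads, edgeR, voom with TMM, and DESeq2, were not run, since the deposited unit is FPKM.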

Other observations

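*Gapdh*, the dehydrogenase in the middle of the path and a common reference gene, varied more among retinas of a group than any of the 10 genes, with coefficients of variation of 76.8% in NL and 63.4% in LD. It stood at 7.68 to 60.4 FPKM in NL, from 674 to 5657 reads, and at 7.33 to 23.9 FPKM in LD (adjusted p = 0.161), and it was chosen for mention after its values were seen. The table lists 5 pseudogenes whose description names it, which reached 0.205 FPKM in sum in any retina. Copies described otherwise were not counted. The rule for reads with several matches is not given, so this sum cannot show how such reads affect *Gapdh*. The cause of its spread was not tested.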
